A study of Mus musculus with 26 samples.

Results

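Schwann cells wrap the axons of peripheral nerves, and the choroid, the vascular bed beneath the retinal pigment epithelium (RPE), carries many such axons. The genes described here are 7 that mark these cells: *Mbp*, *Pmp22*, *Mag*, *Cnp*, *Sox10*, *Ngfr* and *Scn7a*. They were chosen by name, with earlier results of these data known. They are genes of the myelin sheath, of the Schwann cell lineage and of the Schwann cells that do not make myelin. All 7 had a row among the 16426 genes of the single-cell RNA sequencing (scRNAseq) count tables, and 6 had a row among the 17623 genes of each bulk table. *Sox10*, on chromosome 15, was not analysed in bulk.

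Cells of RPE/choroid were profiled in 1 library of B6129PF1/J and 1 library of C57BL/6J mice, both 3 mo old, each pooled from 1 male and 1 female and sorted for nucleated, viable cells. Bulk RNA was profiled in RPE/choroid tissue of 6-mo-old C57BL/6J mice 12 wk after tamoxifen, 3 mice each of *Ihh*+/+ and *Ihh* iΔEC/iΔEC littermates. In the second group, Indian hedgehog (IHH) was deleted from loxP-flanked *Ihh* alleles with the tamoxifen-inducible *Cdh5*-CreERT2, which is active in endothelial cells, and the controls carried the same Cre and received tamoxifen. A further bulk set comprised choroidal GLI1+ cells, a stromal population cultured from *Gli1*GFP/+ mice labelled SWR/J, a line that the methods describe as outcrossed to BALB/c, after 24 h in DMSO or in 100 nM SAG, an agonist of the hedgehog receptor component Smoothened (3 samples each). The libraries held 3637 and 3928 cells with 17168578 and 15230413 unique molecular identifiers (UMIs), and median depths of 3881 and 3174.5 UMIs per cell. They shared 22 cell barcodes, of which 3 belonged to Schwann cells of the B6129PF1/J library and 1 to a Schwann cell of the C57BL/6J library.

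As background, a Schwann cell either ensheathes a single large axon in compact myelin or holds several thin axons in pockets of its membrane without myelin. Myelin is compacted by proteins such as MBP and PMP22, whereas MAG and CNP lie in its uncompacted parts. SOX10 specifies the lineage together with melanocytes, which share its origin in the neural crest. NGFR, the low-affinity neurotrophin receptor, and SCN7A, an atypical sodium channel, are known from Schwann cells without myelin.

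The authors assigned the cells to 13 clusters and named clusters 12 and 13 Schwann cells. Cluster 12 held 108 cells in each library, and cluster 13 held 30 cells of the B6129PF1/J library and 46 of the C57BL/6J library. Markers of the lineage were present in both. *S100b*, which encodes a calcium-binding protein of glia, was at 11.6 and 9.98 UMIs per 10,000 in cluster 12 and at 6.98 and 8.01 in cluster 13 (B6129PF1/J and C57BL/6J, respectively), but higher in melanocytes, at 40.2 and 30.2. *Erbb3*, the neuregulin receptor, was at 1.31 and 1.80 in cluster 12 and at 0.837 and 0.334 in cluster 13. *Mobp*, which marks oligodendrocytes, the myelinating cells of the central nervous system, had 0 UMIs in cluster 12 of either library and 2 and 0 in cluster 13. *Aspa*, an enzyme gene of the same oligodendrocyte list, was found at 5.59 and 7.37 in cluster 12 and at 1.02 and 2.00 in cluster 13. The median depths were 2517 and 2299 UMIs in cluster 12 and 2848 and 2161.5 in cluster 13, below those of each of the other 11 clusters.

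RNA of endothelial cells (ECs) was found in a few Schwann cells. The EC markers *Plvap*, *Cldn5* and *Kdr* together gave 145 UMIs in cluster 12 and 74 in cluster 13 of the B6129PF1/J library, of which 3 cells held 137 and 1 cell held 66, respectively. In the C57BL/6J library they gave 25 and 21 UMIs. Hematopoietic markers (*Ptprc*, *Cd74*, *Lyz2*, *Csf1r* and *C1qa*) summed to between 0.147 and 0.918 UMIs per 10,000 in the Schwann clusters, against 425 and 350.1 in the hematopoietic cluster. The summed levels of 6 stromal genes were 6.37 and 12.1 in cluster 12 and 7.72 and 7.01 in cluster 13, against 221 and 258 in stromal cluster 7. Those of 6 RPE genes were 5.43 and 16.6 in cluster 12 and 6.14 and 4.67 in cluster 13, against 1449 and 1357 in RPE. The part of this RNA in the levels below was not tested, apart from leaving out cells with markers of ECs, RPE, hematopoietic cells or melanocytes. For RPE these markers were *Rpe65* and *Rlbp1* alone, and for hematopoietic cells *Ptprc* and *Cd74* alone. Cells with stromal RNA were not left out.

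All 7 genes had their highest level in a Schwann cluster in both libraries. The level is the UMIs of a gene per 10,000 UMIs summed over the cells of a cluster. For *Sox10* this rank was not resolved, because the intervals of Schwann cells and melanocytes overlapped in both libraries. The share of all genes with their highest level in a Schwann cluster was not computed. The count of 7 genes therefore has no background to be set against. The Schwann clusters made up 3.79% and 3.92% of the cells and 2.41% and 2.58% of the UMIs. Of the UMIs of each gene, they held a median of 73.2% in the B6129PF1/J and 67.6% in the C57BL/6J library. The clusters were built from these same cells and genes, with both libraries together, so the differences between clusters are descriptions. With 1 library per strain they were not tested, and all intervals cover counting error only.

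**Figure D1:**
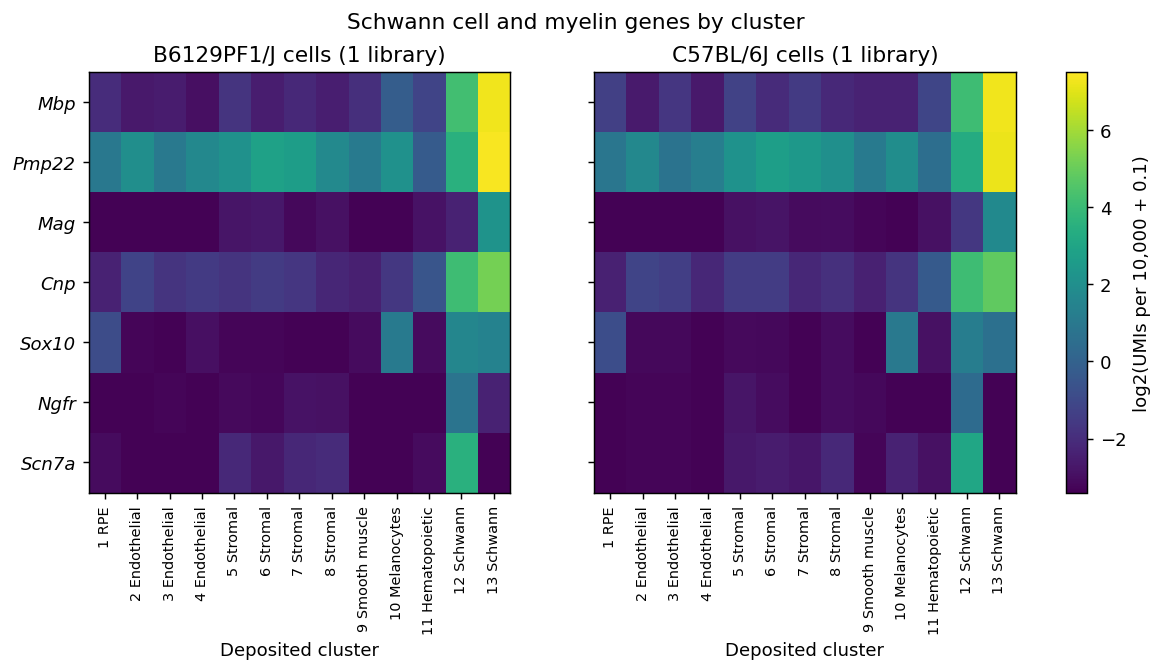
Level of each gene (rows) in each of the 13 deposited clusters (columns) for the B6129PF1/J (left) and the C57BL/6J library (right), as log2 of UMIs per 10,000 plus 0.1. *Mbp* and *Pmp22* are brightest in cluster 13, *Scn7a* and *Ngfr* in cluster 12, and *Sox10* also stands out in melanocytes and in RPE.

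The share found in Schwann cells differed widely among the genes. *Mbp* was the most concentrated, with 2204 of 2425 UMIs (90.9%, exact 95% interval 89.7–92.0) and 2301 of 2599 UMIs (88.5%, 87.2–89.7) in the Schwann clusters. *Scn7a* followed with 82.0% and 83.7%, and *Cnp* had 73.2% and 69.5%. *Ngfr* had 79.7% and 61.8% and *Mag* 63.4% and 67.6%, on totals of only 55 to 82 UMIs per library. For *Sox10* the shares were 42.7% and 40.4%, and for *Pmp22* 27.1% and 29.2%. Most *Sox10* and *Pmp22* UMIs thus came from cells not named Schwann.

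*Mbp* encodes myelin basic protein, which holds the cytoplasmic faces of the myelin membrane together. Its level was 154 (95% Poisson interval 146–161) in cluster 13 of the B6129PF1/J library and 152 (146–160) in that of the C57BL/6J library. In cluster 12 it was 18.1 (16.6–19.7) and 17.4 (15.9–19.03). The level in cluster 13 was 8.48 times (7.70–9.35) and 8.77 times (7.92–9.72) that in cluster 12. Every cell of cluster 13 had *Mbp* UMIs, from 13 to 166 per cell in the B6129PF1/J and from 9 to 111 in the C57BL/6J library, and so did 104 and 97 of the 108 cells of cluster 12. Nearly all cells of cluster 12 therefore carried *Mbp* too, at a lower level. Over the other 11 clusters together the level was 0.132 and 0.201, and no single one of them exceeded 0.788.

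*Pmp22* encodes peripheral myelin protein 22, a membrane protein of compact myelin. It reached 169 (161–177) and 143 (136–150) in cluster 13, and 11.2 (10.1–12.5) and 9.87 (8.72–11.1) in cluster 12, a ratio of 15.1 (13.4–17.0) and 14.5 (12.7–16.5). Outside the Schwann clusters it was more widely spread than *Mbp*, with at least 38 UMIs in every cluster of either library. The highest level outside Schwann cells was that of stromal cluster 6, at 6.95 (6.59–7.32) and 6.45 (6.09–6.82), and the lowest that of hematopoietic cells, at 0.731 (0.522–0.995) and 1.35 (1.08–1.68). Stromal cluster 7 came next below cluster 6, at 6.23 (5.71–6.78) and 5.16 (4.59–5.77), with intervals that overlapped those of cluster 6 in the B6129PF1/J library but not in the C57BL/6J library. ECs, smooth muscle cells and RPE lay between 1.60 and 3.88. After each cell had been thinned to 1700 UMIs, *Pmp22* was detected in 65.6% and 61.9% of the cells of cluster 6, against 9.43% and 17.3% of the hematopoietic cells.

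*Mag* encodes the myelin-associated glycoprotein, which faces the axon. It was at 4.56 (3.37–6.03) and 3.34 (2.38–4.55) in cluster 13, from 49 and 40 UMIs in 23 of 30 and 22 of 46 cells. Cluster 12 held only 3 and 6 *Mag* UMIs, so that the ratio of cluster 13 to 12, 46.5 (15.0–233) and 15.2 (6.39–43.8), is known only loosely. RPE, melanocytes and all EC clusters were at 0 in both libraries, with an upper 95% limit in RPE of 0.0123 and 0.0211. The 30 and 22 cells outside the Schwann clusters with *Mag* had 1 UMI each. Of these, 28 and 19 were stromal, 0 and 0 had an *Mbp* UMI, and 1 and 3 had a *Cnp* UMI.

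*Cnp*, the gene of a phosphodiesterase in the uncompacted layers of myelin, separated the clusters least among the myelin genes. It was at 36.8 (33.3–40.7) and 28.8 (25.8–32.0) in cluster 13 and at 17.2 (15.8–18.8) and 17.4 (15.9–19.03) in cluster 12. The ratio was 2.14 (1.87–2.44) in the B6129PF1/J library and 1.66 (1.44–1.91) in the C57BL/6J library, on either side of a 2-fold difference. All cells of cluster 13 and 104 of the 108 cells of cluster 12 in each library had *Cnp*. Outside Schwann cells the highest level was that of hematopoietic cells, 0.603 (0.415–0.847) and 0.709 (0.513–0.955), followed by EC cluster 2 at 0.336 (0.259–0.429) and 0.350 (0.270–0.448). The intervals of these clusters overlapped in the B6129PF1/J library but not in the C57BL/6J library.

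*Sox10* encodes the transcription factor of the lineage. It was at 2.97 (2.39–3.65) and 2.24 (1.71–2.87) in cluster 12, at 2.61 (1.73–3.77) and 1.42 (0.827–2.27) in cluster 13, and at 2.03 (1.20–3.20) and 1.93 (1.18–2.98) in melanocytes. The intervals of these clusters overlapped within each library, so their order was not resolved at this depth. RPE came next, at 0.443 (0.371–0.526) and 0.463 (0.368–0.576), in 102 of 407 and 72 of 374 cells. Every other cluster was at 0.033 or below. After thinning, 6.14% and 8.29% of RPE cells had *Sox10*, against 0.27% and 0.248% of the cells of EC cluster 2.

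The *Sox10* UMIs of RPE came with fewer UMIs of melanocyte genes than those of melanocytes. In melanocytes there were 51.9 and 68.1 UMIs of *Mlana*, a melanosome gene, for each *Sox10* UMI, and in RPE 3.71 and 3.41. Of the RPE cells with *Sox10*, 55 of 102 and 37 of 72 had no UMI of *Mlana* or of the pigment gene *Pmel*, whereas 0 of 9 and 0 of 12 melanocytes with *Sox10* lacked both.

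*Scn7a* and *Ngfr* had the opposite pattern to the myelin genes. *Scn7a* was at 11.5 (10.3–12.7) and 8.11 (7.07–9.25) in cluster 12, in 102 and 88 of the 108 cells, and had 0 UMIs in all 30 and 46 cells of cluster 13. With a count of 0 set to 3, the ratio of cluster 12 to 13 was 41.1 and 32.4. The exact lower limits of this ratio were 33.2 and 26.1. *Ngfr* was at 1.63 (1.21–2.15) and 1.25 (0.864–1.74) in cluster 12, from 50 and 34 UMIs in 40 and 26 cells. Cluster 13 held 1 *Ngfr* UMI in the B6129PF1/J library, a ratio of 17.6 (3.01–707). It held 0 in the C57BL/6J library, where the ratio with 0 set to 3 was 4.98 and the exact lower limit 3.84. Both genes were thus a feature of cluster 12 in either library.

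Outside the Schwann clusters, *Scn7a* was found mainly in stromal cells. Its level was highest in stromal cluster 8, at 0.142 (0.0651–0.270) and 0.126 (0.0461–0.273), with overlapping intervals for the other stromal clusters in both libraries. ECs held 0 and 2 UMIs in all. *Ngfr* was at or below 0.0433 in each of the other 11 clusters, with 0 UMIs in 6 and 5 of them.

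Seen together, 3 of the 7 genes (*Mbp*, *Pmp22* and *Mag*) were at least 2-fold higher in cluster 13 than in cluster 12 in both libraries, and 2 (*Ngfr* and *Scn7a*) at least 2-fold lower. Of the 4768 genes with at least 10 UMIs in the Schwann clusters of each library, 5.22% were at least 2-fold higher and 11.2% at least 2-fold lower in both. *Cnp* passed the 2-fold difference in the B6129PF1/J library only, for a count of 4 genes there and 3 in the C57BL/6J library. The background in the single libraries was 10.0% and 10.3% for higher and 22.1% and 22.1% for lower levels in cluster 13. Because a count of 0 was set to 3, the shares for lower levels leave out some genes absent from cluster 13. *Tfap2a* of the B6129PF1/J library, with 13 UMIs in cluster 12 and 0 in cluster 13, was given a ratio of 0.657.

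**Figure D2:**
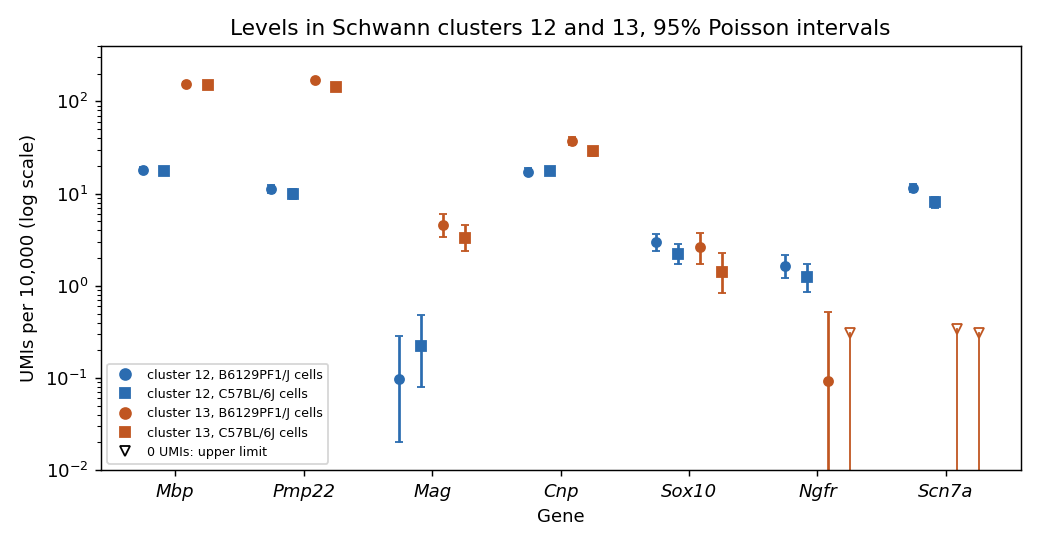
Level of each gene (UMIs per 10,000, log scale) in Schwann clusters 12 (blue) and 13 (orange) of the B6129PF1/J (circles) and C57BL/6J (squares) libraries, with 95% Poisson intervals. Open triangles mark the upper limit for genes with 0 UMIs. *Mbp*, *Pmp22* and *Mag* lie higher in cluster 13, *Ngfr* and *Scn7a* in cluster 12, and the *Sox10* intervals overlap.

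In GRCm38, *Pmp22*, *Cnp* and *Ngfr* lie on chromosome 11 (chr11:63128982-63159547, plus strand; chr11:100574904-100591729, plus strand; chr11:95568818-95587735, minus strand), *Mag* on chromosome 7 (chr7:30899176-30914873, minus strand) and *Scn7a* on chromosome 2 (chr2:66673425-66784914, minus strand). RefSeq promoter sequences were matched for 5 of the 7 genes, with several start sites for some, 10 windows in all. Each window spans 250 bases before and 50 bases after an annotated start in GRCm38.p6. The windows were searched on both strands for ACAAAG, a core recognised by SOX proteins such as SOX10. They were also searched for GCGTGGG, a core recognised by EGR proteins such as EGR2, a regulator of myelin genes. ACAAAG was in 3 of the 10 windows (those of 2 overlapping *Mag* starts and of *Cnp*) and in 18.7% of all 32851 promoters. GCGTGGG was in 2 windows (*Cnp* and *Scn7a*) and in 5.04% of all promoters. No match overlapped another, and a match is a description of these letters only. The windows with a match are shown, the first-listed one for *Mag*, to set a gene of cluster 13, a gene of both clusters and a gene of cluster 12 side by side. Each reads 5′ to 3′ on the strand of the gene, with the matches in capitals.
Mag (chr7:30914814-30915113, minus strand): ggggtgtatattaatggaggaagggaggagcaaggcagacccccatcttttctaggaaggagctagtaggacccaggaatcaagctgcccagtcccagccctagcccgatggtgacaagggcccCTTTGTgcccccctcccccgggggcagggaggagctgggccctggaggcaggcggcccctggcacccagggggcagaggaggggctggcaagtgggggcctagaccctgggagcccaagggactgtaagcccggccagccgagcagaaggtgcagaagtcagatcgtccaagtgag
Cnp (chr11:100574689-100574988, plus strand): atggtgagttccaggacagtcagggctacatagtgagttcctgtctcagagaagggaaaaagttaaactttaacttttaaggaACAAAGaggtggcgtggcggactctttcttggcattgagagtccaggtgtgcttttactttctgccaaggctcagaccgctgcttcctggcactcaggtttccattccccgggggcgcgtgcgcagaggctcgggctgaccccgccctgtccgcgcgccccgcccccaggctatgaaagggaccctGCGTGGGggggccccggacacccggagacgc
Scn7a (chr2:66784861-66785160, minus strand): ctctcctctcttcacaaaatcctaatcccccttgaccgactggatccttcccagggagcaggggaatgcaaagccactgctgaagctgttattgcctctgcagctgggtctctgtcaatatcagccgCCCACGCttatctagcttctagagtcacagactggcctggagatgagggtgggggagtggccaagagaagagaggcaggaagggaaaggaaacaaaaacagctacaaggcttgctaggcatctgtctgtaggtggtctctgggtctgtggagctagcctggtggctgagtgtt
In the *Mag* window the match lies on the strand opposite to the gene, from base 125 of 300. In the *Cnp* window, ACAAAG starts at base 84 and GCGTGGG at base 270, both on the strand of the gene. In the *Scn7a* window GCGTGGG lies on the opposite strand, from base 128. The 4 windows of *Pmp22* and the window of *Ngfr* held neither.

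The genes also differed in how evenly they were spread over single cells. In cluster 13, *Mbp* ranged from 36.6 to 370 UMIs per 10,000 of a cell (median 155, 30 cells) in the B6129PF1/J library and from 20.9 to 267 (median 149, 46 cells) in the C57BL/6J library. In cluster 12 it ranged from 0 to 52.9 (median 16.5, 108 cells) and from 0 to 91.9 (median 15.2, 108 cells). The clusters overlapped at the edges of these ranges, but the medians lay far apart. *Pmp22* had medians of 155 and 150.4 in cluster 13 and of 10.2 and 6.80 in cluster 12. *Cnp* had medians of 40.3 and 27.7 in cluster 13 and of 17.4 and 15.6 in cluster 12, with ranges that overlapped through most of their length.

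**Figure D3:**
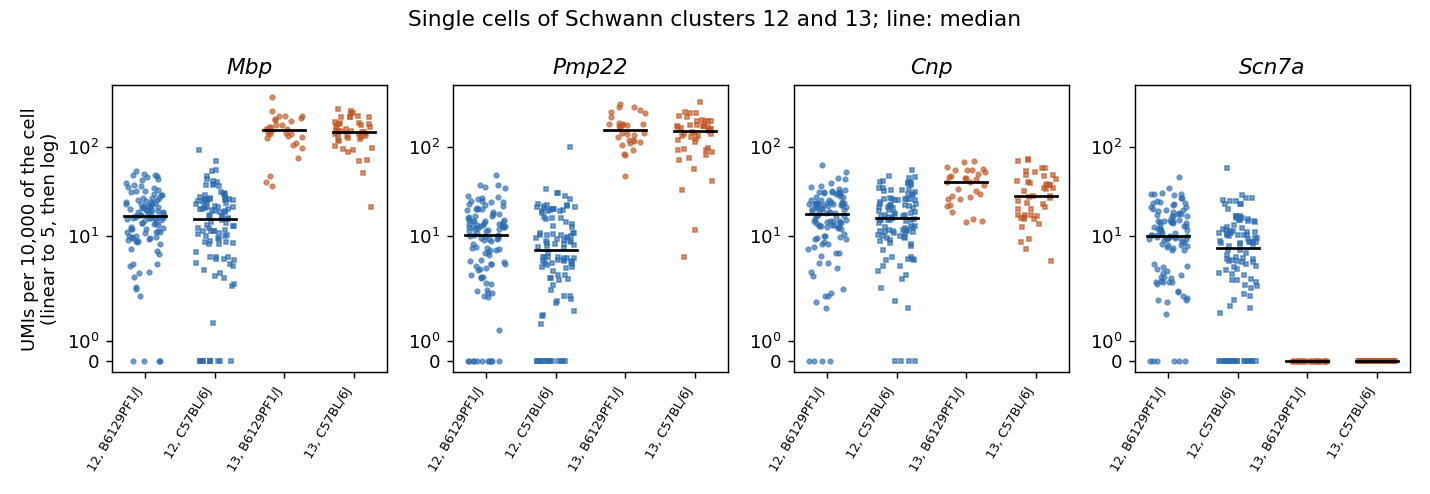
UMIs per 10,000 of each cell (linear up to 5, logarithmic above) for 4 genes in the cells of Schwann clusters 12 (blue) and 13 (orange) of each library, with 1 point per cell and a line at the median. All cells of cluster 13 are at 0 for *Scn7a*, and *Cnp* overlaps most between the clusters.

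Most Schwann cells expressed several of the genes at once. In cluster 12, the median cell had UMIs of 5 (B6129PF1/J) and 4 (C57BL/6J) of the 7 genes, and 108 and 107 of the 108 cells had more than 1. All 30 and 46 cells of cluster 13 had *Mbp*, *Pmp22* and *Cnp*, and the median was 4 genes. Most *Ngfr*-positive cells of cluster 12 had *Scn7a*, but so did most cells of that cluster. All 40 *Ngfr*-positive cells of the B6129PF1/J library had *Scn7a*, against 102 of all 108 cells. In the C57BL/6J library 20 of 26 did, against 88 of all 108 cells. Of the cells with *Scn7a*, 98 of 102 and 81 of 88 also had *Mbp*, against 104 and 97 of all 108 cells. These shares lay near those of all cells, so they show no particular pairing of the genes. The nonmyelinating markers and *Mbp* therefore did not exclude each other in cluster 12. In cluster 13, 23 and 22 cells had *Mag*, of which 1 and 0 had *Ngfr* or *Scn7a*.

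Outside the Schwann clusters, *Mbp* fell into cells of different kinds. Single UMIs were scattered, with 126 and 130 cells of all 11 clusters holding 1 to 3. A further 8 and 17 cells held 4 or more, with a maximum of 23 and 30, a limit set after the values were seen. These cells, spread over 5 and 8 clusters, held 78 and 150 *Mbp* UMIs and 16 and 26 UMIs of *Mobp*. For every 100 *Mbp* UMIs, that is 20.5 and 17.3 *Mobp* UMIs, against 0.121 and 0 in cluster 13. *Mobp* was detected in 7 of the 8 and 11 of the 17 cells, and *Mag* in 0 of either set. The *Mbp* of these few cells thus came with *Mobp*, which the Schwann clusters nearly lacked. Where this RNA came from was not tested. In the 126 and 130 cells with 1 to 3 *Mbp* UMIs, there were 2.80 and 2.70 *Mobp* UMIs per 100 *Mbp* UMIs.

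The other genes of the myelin sheath followed *Mbp*, *Pmp22* and *Mag*. This list and those below were chosen with earlier results of these data known, so their counts are descriptions. Of 18 listed genes, which include *Mbp*, *Pmp22*, *Mag* and *Cnp*, 13 were at least 2-fold higher in cluster 13 in both libraries and 0 were lower, with a median log2 ratio of 4.17 and 4.31, against -0.23 and -0.23 over all genes. The ratio sets counts of 0 to 3, so for genes absent from a cluster its size depends on that setting. *Pllp*, which encodes plasmolipin, was at 0.588 and 0.807 in cluster 12 and at 23.4 and 21.4 in cluster 13. *Ncmap*, a protein of noncompact myelin, was at 26.4 and 24.7 in cluster 13, from 284 and 296 UMIs, and had 0 and 6 UMIs in cluster 12. Those that did not pass in both libraries included *Cnp*, *Gjc3*, *Cmtm5* and *Mpdz*. *Gjc3* stood at a ratio of 5.10 and 1.55, and *Cmtm5* at 0.584 and 0.715.

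The enzymes of lipid synthesis went the same way. Of 10 genes with enough UMIs, 7 were at least 2-fold higher in cluster 13 in both libraries and 0 were lower (median log2 ratio 2.25 and 1.90). *Elovl1*, which elongates very long chain fatty acids, was at 5.96 and 3.51 in cluster 13 and at 0.556 and 0.587 in cluster 12. *Hmgcs1*, an early enzyme of cholesterol synthesis, was at 3.82 and 3.84, against 0.784 and 0.624. *Ugt8a* and *Fa2h*, which make the galactolipids of myelin, had 0 or 1 UMI in cluster 12 of each library and 24 to 43 in cluster 13. *Idi1* counted among the 7 with intervals that included no difference in both libraries, 3.32 (0.956–12.0) and 2.02 (0.679–5.91). The 3 genes that did not pass in both were *Scd2*, at a ratio of 1.73 (1.18–2.51) and 1.02 (0.616–1.65), *Gal3st1*, which sulfates galactolipids, at 1.14 (0.434–2.70) and 0.838 (0.298–2.08), and *Fdps*, at 4.66 (2.08–10.9) and 1.66 (0.870–3.12).

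The genes listed for Schwann cells without myelin followed *Ngfr* and *Scn7a*. All 10 with enough UMIs, those 2 included, were at least 2-fold lower in cluster 13 in both libraries (median log2 ratio -4.16 and -3.42). Because the list was chosen with earlier results of these data known, this count is not independent of them. *Gfra3*, a receptor for artemin, was at 23.2 and 9.43 in cluster 12 with 0 UMIs in cluster 13 of either library. *Matn2*, an extracellular matrix protein, was at 9.90 and 13.1 in cluster 12 and at 0.465 and 0.417 in cluster 13. *Ncam1*, an adhesion molecule, was at 3.46 and 3.23, with 1 UMI in cluster 13 of each library. The 2 genes without enough UMIs, *Gap43* and *Gfap*, also had 0 UMIs in cluster 13.

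**Figure D4:**
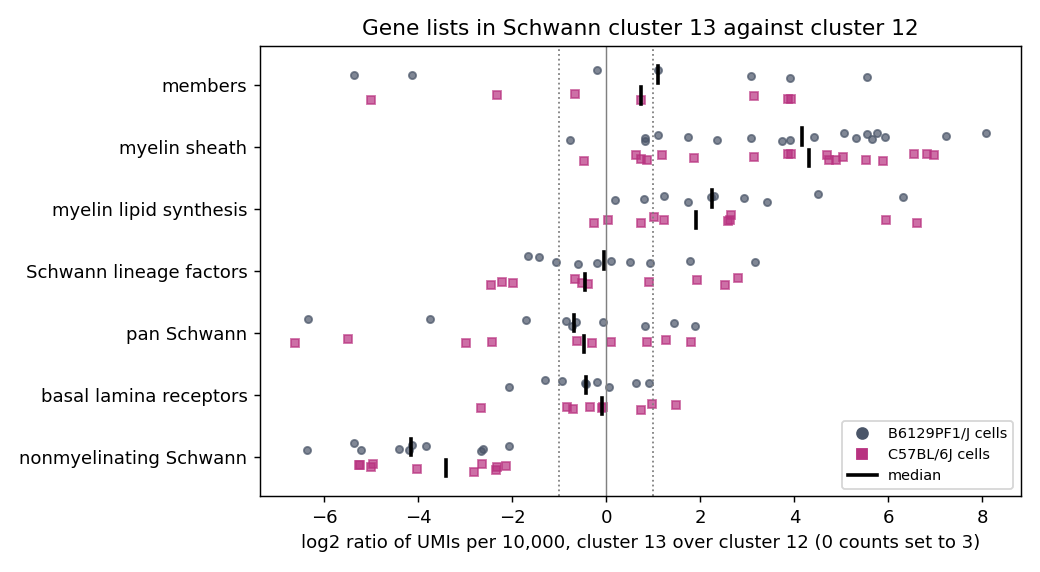
Ratio (log2) of the level in cluster 13 to that in cluster 12 for the genes of each list with at least 10 UMIs in the Schwann clusters of both libraries, with 1 point per gene and library and a black line at the median. Dotted lines mark 2-fold. Sheath and lipid genes lie mostly to the right, genes of Schwann cells without myelin all to the left, and lineage factors on both sides.

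Lineage factors were divided. Of 10 with enough UMIs, 2 were at least 2-fold higher in cluster 13 in both libraries and 3 at least 2-fold lower. The first were *Egr2*, at 3.35 and 5.09 in cluster 13 against 0.981 and 0.734 in cluster 12, and *Pou3f1* (OCT6), at 11.2 and 11.9 against 1.24 and 2.09. Both are known to act before and during myelination. *Zeb2* was at 8.07 and 6.82 in cluster 12 and at 2.98 and 1.25 in cluster 13. The others at least 2-fold lower were *Foxd3*, at a ratio of 0.475 (0.206–0.969) and 0.213 (0.0418–0.682), and *Etv1*, at 0.316 (0.00722–2.28) and 0.253 (0.00577–1.82), with 9 UMIs in cluster 12 and 1 in cluster 13 of each library and intervals that included no difference. *Sox10* itself was among the 5 that passed in neither direction, at a ratio of 0.876 (0.552–1.35) and 0.634 (0.347–1.10).

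Among 10 genes of Schwann cells at large, 2 were higher in cluster 13 and 3 were lower. *Fabp7*, a brain-type fatty acid binding protein, was at 22.7 and 16.5 in cluster 12 with 0 and 2 UMIs in cluster 13, and *Cdh19* at 5.00 and 3.78 against 0.372 and 0.0835. *Cd9* was at 93.9 and 104 in cluster 13 and at 25.4 and 29.7 in cluster 12. *Kcna1*, a potassium channel gene, was level between the clusters, at 40.4 and 35.5 in cluster 12 and 38.4 and 38.3 in cluster 13. Of 9 receptors and laminins of the basal lamina, 0 passed in both libraries. Among 5 genes of neuregulin and trophic signaling with enough UMIs, 2 were higher in cluster 13 and 1 was lower. *Gfra1* was higher on 10 and 11 UMIs in all, with an interval that included no difference in the B6129PF1/J library, and *Ntrk3* was the lower one, with 0 UMIs in cluster 13. Of the genes of Schwann cells under repair, *Jun* alone had enough UMIs and passed in neither direction.

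The likeness of the genes across clusters was described by Pearson's r of log2(UMIs per 10,000 + 0.1) over the 26 combinations of cluster and library, among 11193 genes with at least 50 UMIs in each library. These points share libraries and depth, so r describes the pattern only. *Ngfr* and *Scn7a* were the most alike of the 7 genes (r = 0.96), with *Mbp* and *Cnp* at 0.96 as well, whereas *Mag* and *Scn7a* stood at 0.09. The 3 genes most like *Mag* were *Cldn19* (r = 0.99), *Mlip* (0.98) and *Fam178b* (0.98). Among those most like *Mbp* were *Gas2l3* (0.98) and *Cnp* (0.96), and those most like *Cnp* were *Kcna1* (0.98), *Gas2l3* (0.98) and *Gatm* (0.97). *Pmp22* was nearest to *Papss1* (0.95), *Ephb6* (0.93) and *Bcas1* (0.93), and *Sox10* to *Epdr1* (0.95), *Cmtm5* (0.94) and *Kif21a* (0.94). *Ngfr* was nearest to *Gfra3* (0.98), *Csmd1* (0.97) and *Scn7a* (0.96), and *Scn7a* to *Chl1* (0.97), *Gfra3* (0.97) and *Csmd1* (0.97).

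Between the strains, the levels in Schwann cells were close. Of the 7 genes, 1 differed at least 2-fold in cluster 12 and 0 in cluster 13. Over all genes with at least 10 UMIs in a cluster, 14.2% did in cluster 12 and 17.2% in cluster 13. The exception was *Mag* in cluster 12, at 0.0981 in B6129PF1/J and 0.22 in C57BL/6J cells, a ratio of 2.24 (0.479–13.9) that rests on 3 and 6 UMIs. With 9 UMIs in all, *Mag* was below the minimum behind the 14.2%, so that 0 of the genes that met it differed 2-fold. Smaller differences with intervals that did not overlap were seen for *Pmp22* and *Cnp* in cluster 13, 1.18- and 1.28-fold higher in B6129PF1/J, and for *Scn7a* in cluster 12, 1.42-fold higher in B6129PF1/J. With 1 library each, strain and library cannot be told apart.

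In bulk RPE/choroid tissue, the question was whether the genes differed between *Ihh*+/+ mice and mice without endothelial *Ihh*. The deposited values are averages over the 3 mice of a group in FPKM, a level scaled to transcript length and library depth, so that no spread between mice is known, no test was made, and the read depth is unknown. *Ihh* itself was at 1.53 in *Ihh*+/+ and 0.454 in *Ihh* iΔEC/iΔEC tissue, and its target *Gli1* at 9.40 and 3.15.

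None of the 4 genes with at least 1 FPKM in either group differed 2-fold, on a scale of log2(FPKM + 0.1). Of 11411 genes, 1.03% were at least 2-fold higher and 0.648% at least 2-fold lower in *Ihh* iΔEC/iΔEC tissue. *Pmp22* was the most abundant, at 64.2 FPKM in *Ihh*+/+ and 65.8 in *Ihh* iΔEC/iΔEC tissue (log2 ratio 0.03). *Mbp* was at 14.2 and 17.6 (0.31), *Cnp* at 7.07 and 6.15 (-0.20) and *Scn7a* at 1.03 and 0.952 (-0.11). The median of these 4 was -0.04, as was that of all genes. *Ngfr*, at 0.624 and 0.875, and *Mag*, at 0.507 and 0.539, were below 1 FPKM. In bulk samples, fewer cells of a type and less RNA per cell cannot be told apart.

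The group averages of the myelin genes differed in both directions, and whether these differences exceed the spread between mice is not known. *Mal*, a myelin proteolipid gene, stood at 5.66 in *Ihh*+/+ and 9.29 in *Ihh* iΔEC/iΔEC tissue (log2 ratio 0.70), and *Gjc3*, a connexin gene, at 1.98 and 1.35 (-0.52), in the direction opposite to *Mbp*. Of the 11 sheath genes with at least 1 FPKM, 0 passed 2-fold (median -0.29), and of 7 genes of Schwann cells without myelin 0 passed (median -0.11). Below 1 FPKM, the sheath gene *Cldn19*, a claudin gene, was at 0.197 in *Ihh*+/+ and 0.972 in *Ihh* iΔEC/iΔEC tissue (1.85), the largest difference of the list. *Mobp*, of the oligodendrocyte list, was at 0.0983 and 0.341, also below 1 FPKM. The 3 genes of that list with at least 1 FPKM went the other way, with a median of -0.46. Of these, 0 were at least 2-fold higher and 1, *Cldn11*, was at least 2-fold lower.

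Genes of other cell types differed between the same tissues. All 6 photoreceptor genes were at least 2-fold lower in *Ihh* iΔEC/iΔEC tissue, among them *Gnat1* at 25.5 and 10.8, and the 6 melanocyte genes had a median log2 ratio of -0.56, with *Pmel* at 515 and 280.2. The 6 stromal genes had a median of -0.67, with 0 past 2-fold. Among lineage factors *Egr2* was at least 2-fold higher, and *Jun*, of the repair list, at least 2-fold lower. The part of these cell types in the values of the Schwann cell genes was not tested.

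**Figure D5:**
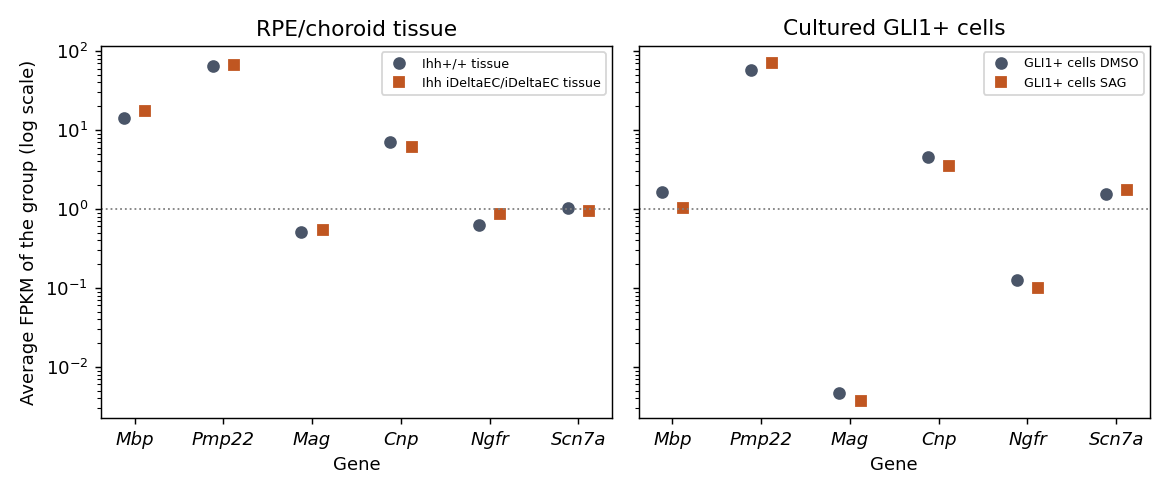
Average FPKM (log scale) of the 6 genes with a bulk row in RPE/choroid with (*Ihh*+/+) and without (*Ihh* iΔEC/iΔEC) endothelial *Ihh* (left) and in cultured GLI1+ cells with DMSO or SAG (right), with 1 point per group average and no error known. The dotted line is at 1 FPKM. The points of a pair lie close together for each gene.

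The cultured GLI1+ cells, which are stromal, held some of the genes and lacked others. The tables were normalized separately, so no difference from the tissue was computed. With DMSO, *Pmp22* was at 57.1, *Cnp* at 4.57, *Mbp* at 1.62 and *Scn7a* at 1.57 FPKM, whereas *Ngfr* was at 0.127 and *Mag* at 0.00467. The sheath genes *Mal* and *Pllp* were at 0.009 and 0.0317. *Mbp*, *Cnp* and *Scn7a* were thus above 1 FPKM in cells with little *Mal*, *Pllp* or *Mag*.

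With SAG, *Gli1* was at 3.65 FPKM, against 0.028 with DMSO, and none of the 4 genes with at least 1 FPKM differed 2-fold. Of 10325 genes, 0.368% were at least 2-fold higher and 1.10% at least 2-fold lower with SAG. *Pmp22* was at 70.8 (log2 ratio of SAG to DMSO 0.31), *Scn7a* at 1.74 (0.14), *Cnp* at 3.52 (-0.37) and *Mbp* at 1.04 (-0.59). The median of all genes was 0.06. *Mbp* differed most of the 4, and its ratio was larger in size than that of 96.4% of all genes. Its level was near the limit of 1 FPKM, and no spread between samples is known, so whether it differed with SAG was not tested.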

How the data were processed

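The authors made the deposited UMI counts with Cell Ranger on mm10 and filtered them in Seurat 2.1 by UMIs, genes and mitochondrial content per cell; Seurat also gave the clusters, from both libraries together. The fraction of mitochondrial UMIs is the authors' value. The files hold slightly fewer cells than the study states. The deposited averages per cluster, used in an alternative, are scores that the authors took as the mean natural log of 1 plus UMIs per 10,000. The FPKM values are group averages deposited by the authors after alignment with STAR 2.4.0f1 and Cufflinks 2.0.2. The tools are given in the submitters' processing notes. Columns of the authors' own comparisons (fold differences and adjusted p-values) and the table of EC-enriched genes were not used. The count of columns belonging to no listed sample was 0.

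Here UMIs were summed per cluster and library without removing doublets, and given per 10,000 with exact Poisson 95% intervals, shares with exact Clopper-Pearson intervals, and ratios with exact binomial ones. A count of 0 was set to 3 for ratios. Each cell was thinned to 1700 UMIs where stated. In bulk, log2(FPKM + 0.1) was compared at 2-fold and at least 1 FPKM in the higher group. Planned tests (limma) needed values per library and were not made. Examples from lists were taken by the highest level in cluster 12 or 13 of the B6129PF1/J library, and others (such as *Cmtm5*, *Ugt8a*, *Fa2h*, *Gjc3*, *Mal* and *Erbb3*) were singled out after their values were seen. The likeness rule named 3 genes for each gene. Some genes that these rules named are not reported here. The 7 genes and the lists were chosen with earlier results of these data known. The call was tested on simulated Poisson counts, with changes only in genes of high counts and well above 2-fold. That test does not cover genes with few UMIs, such as *Mag* and *Ngfr*, or ratios near 2-fold, such as that of *Cnp*. The work was done in Python 3.11.15 with scipy 1.17.1, pandas 2.3.3, matplotlib 3.10.9 and numpy 2.4.6. Coordinates are those of RefSeq on GRCm38.p6.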

Additional observations from a re-analysis of the deposited data

How the results depend on the processing

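The counts of genes highest in Schwann clusters, and of those 2-fold higher or lower in cluster 13, stayed within 1.5 times the reported counts with cells weighted equally, with cells thinned to 1700 UMIs, without the top cell of each cluster, without cells holding 3 or more marker UMIs of another cell type, and at 3-fold, as well as without shared barcodes (added after the data were seen). The markers of other cell types did not include stromal or smooth muscle genes. At 3-fold, *Cnp* no longer counted in the B6129PF1/J library, leaving 3 genes. By the authors' averages *Sox10* was highest in melanocytes of the C57BL/6J library, leaving 6 of the 7 genes highest in a Schwann cluster. The median share in Schwann clusters of the B6129PF1/J library was 81.1% with equal weights and 79.7% after thinning. The count of genes that differed 2-fold between strains was 0 in cluster 12 after thinning and 1 in cluster 13 without cells holding RNA of another type. With SAG, 1 gene passed 1.5-fold. Of single levels in cluster 13 of the B6129PF1/J library, *Pmp22* was 158 after thinning, and *Mbp* 144 and *Ngfr* 0 without the top cell. In that of the C57BL/6J library, *Mbp* was 162 and *Pmp22* 153 without cells holding RNA of another type. Against all genes with at least 1 UMI, 32.7% and 31.6% were called higher in cluster 13. This share includes genes with 0 UMIs in cluster 13, because a count of 0 is set to 3 there. *Bdnf* of the B6129PF1/J library, with 1 UMI in cluster 12 and 0 in cluster 13, was given a ratio of 8.54. The share is therefore no measure of genes higher in cluster 13. The causes of the other changes were not tested.

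No paired analysis was possible because the bulk tables hold group averages only, and leaving out single libraries was not run for the same reason. Depth limits *Mag* and *Ngfr* most.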
